A study of Homo sapiens with 2 samples.

Results

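The transcripts of 10 transcription factor genes were followed in 786-O cells, a line established from a human clear cell carcinoma of the kidney that lacks functional VHL: the Fos family (FOS, FOSB, FOSL1 and FOSL2), the Jun family (JUN, JUNB and JUND) and the small Maf proteins (MAFF, MAFG and MAFK). They were chosen by symbol as the subunits of AP-1 and the small Maf partners. All 10 were found among 22595 gene symbols, and all 10 were among the 14240 symbols with at least 20 counts over both libraries, the minimum for a gene to be called measured. The data were RNA-seq read counts from 2 libraries, 1 from cells grown in medium with 25 mM glucose and 1 from cells in medium with 0 mM glucose, and were collected to profile the response to glucose starvation. How long the cells were kept without glucose, and whether they had any further treatment, is not stated. The libraries also carry the short descriptions LucF (with glucose) and LucG (without), which are not explained. Anything else that set the cultures apart cannot be told apart from glucose.

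AP-1 is a dimer of basic leucine zipper proteins. Jun proteins can pair with each other or with Fos proteins, whereas Fos proteins need a Jun or another partner to bind DNA. FOS, FOSB and JUNB are among the classical immediate-early genes, whose short-lived transcripts appear within minutes of a growth factor or stress signal. FOSL1 (Fra-1) and FOSL2 (Fra-2) lack the strong transactivation domain of FOS and are often found at steady levels in carcinoma lines. The small Mafs also lack a transactivation domain: as homodimers they repress, and with CNC factors such as NRF2 (NFE2L2) they form the complexes that bind antioxidant response elements.

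Total counts were 27317598 with glucose and 31345853 without. Levels are given as CPM, counts per 1e+06 of the TMM-scaled library size, and as RPKM, CPM per kilobase of gene model, wherever genes are compared with each other. With 1 library per group there is no replicate check and no test, and higher or lower describes these libraries. All intervals are 95% and cover counting error only. By the rule of size used here, a gene is higher without glucose if the whole interval of its ratio exceeds 2-fold and lower if the whole interval is under 0.5-fold. This rule was met upward by 535 (3.76%) and downward by 883 (6.20%) of the 14240 measured genes, whose median log2 ratio was 0.01. The share of small RNA genes (snoRNA, scaRNA and microRNA) in all counts was 5.83% and 7.99%, in the order with and without glucose that is kept throughout. All 10 markers of the line and of renal epithelium were measured. CDH6 (192 and 8.36 CPM, 23.0-fold) and LHX1 (19.5 and 3.38 CPM, 5.77-fold) were lower by the rule. EPAS1 (134 and 422 CPM, 3.14-fold) and SLC2A1 (388 and 1195 CPM, 3.08-fold) were higher. The renal transcription factor genes PAX8 and PAX2, named after their values were seen, did not meet the rule. PAX8 was at 244 and 232 CPM and PAX2 at 2.41 and 1.20 CPM. Of markers of other cells, 1 of 5 leukocyte, 2 of 5 endothelial and 0 of 4 erythroid genes were measured, with 12 and 9 counts for CD14, 9 and 4 for PTPRC, 32 and 8 for KDR and 5 and 1 for PECAM1. In bulk RNA a change in the number of cells that express a gene and a change in RNA per cell cannot be told apart.

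FOS, FOSB and MAFF were higher without glucose, JUNB was lower, and the other 6 members did not meet the rule. The share of members past the rule in either direction, 4 of 10, stands beside 9.96% of all measured genes, and the median log2 ratio of the members was 0.72. Counting error alone was exceeded by all 10, with 6 intervals wholly above 1-fold, as for 37.4% of measured genes, and 4 wholly below it, as for 36.5%. The 3 families differed in their sums per length. The Fos sum was lower without glucose, the interval of the Jun ratio held 1, and the small Maf sum was higher.

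**Figure D1:**
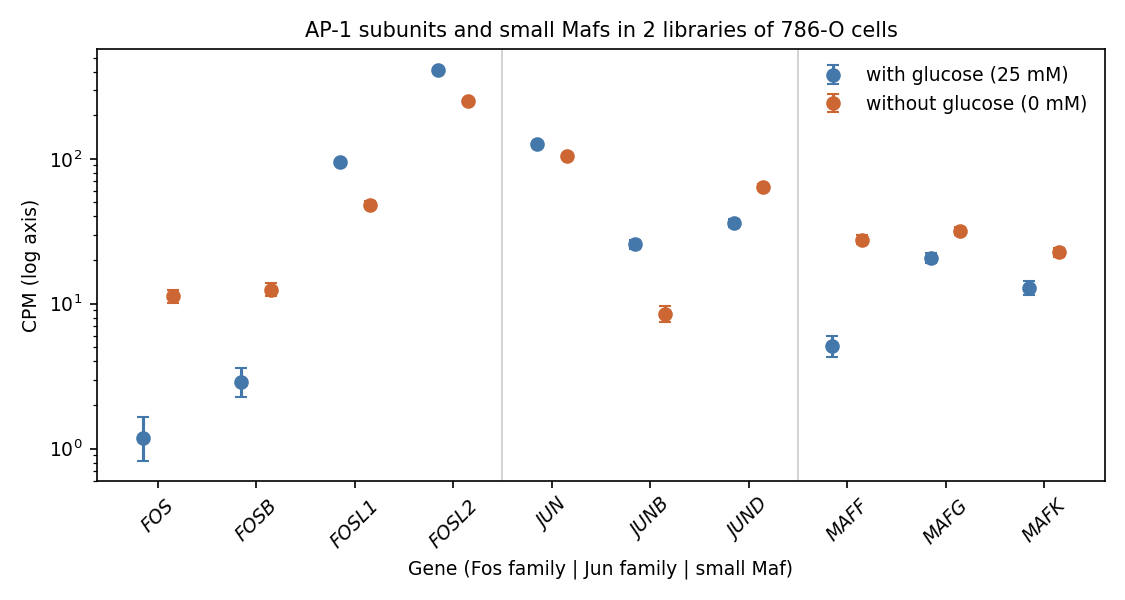
CPM of each member on a log axis in the library with 25 mM glucose (blue) and the library with 0 mM glucose (orange), with exact Poisson 95% counting intervals as bars and grey lines between the families. FOS, FOSB and MAFF stand far higher in orange than in blue, JUNB lower, and FOSL2 is the highest member in both libraries.

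In the Fos family FOS and FOSB, the least abundant members with glucose, were higher without it by the rule, and FOSL1 and FOSL2, the most abundant, had ratios below 1 that did not meet it. FOS, whose product is the prototype AP-1 partner of JUN, had 33 counts with glucose and 346 without, or 1.18 and 11.3 CPM. The difference was 9.50-fold (interval 6.64 to 14.0, log2 ratio 3.25), which ranked 63rd from the top of the 14240 measured genes. FOSB, a close relative of FOS, had 80 and 385 counts, or 2.87 and 12.5 CPM. It was 4.36-fold higher without glucose (interval 3.42 to 5.62, log2 ratio 2.12). Both genes were barely expressed with glucose. The intervals of both ratios lay wholly above 1-fold, as did those of 37.4% of measured genes.

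FOSL2 was the most abundant member in both libraries, with 11419 and 7660 counts, or 410 and 249 CPM. It was 1.65-fold lower without glucose (interval 1.60 to 1.69, log2 ratio -0.72). FOSL1, an AP-1 subunit tied to invasive growth of carcinoma cells, had 2633 and 1487 counts, or 94.5 and 48.4 CPM. It was 1.95-fold lower (interval 1.83 to 2.08, log2 ratio -0.97), so that the interval reached past 0.5-fold without lying wholly below it. Neither gene met the rule, although both intervals lay wholly below 1-fold, as did those of 36.5% of measured genes.

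Because FOSL1 and FOSL2 made up nearly all Fos family transcripts, the sum followed them. Summed RPKM of the family were 161 with glucose and 100.1 without, 1.61-fold lower (log2 ratio -0.69, interval -0.73 to -0.64), whereas the median of the 4 log2 ratios was 0.70. The sign of the sum and that of the median therefore differed. FOSL1 and FOSL2 together held 99.2% of the summed RPKM with glucose and 91.5% without, and FOS and FOSB together 0.815% and 8.54%. Per length, FOSL2 stood 187-fold above FOS with glucose and 12.0-fold above it without. FOS was at 0.550 RPKM against 0.761 for FOSB with glucose, where their counting intervals overlapped, and at 5.22 against 3.32 without, where they did not.

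More exons of the FOS and FOSB gene models held more than 10 reads without glucose. The deposited tables count the exons of each model that hold more than 10 reads. For FOS this was 1 of 4 exons with glucose and 4 of 4 without, and for FOSB 2 of 4 and 4 of 4. FOSL1 and FOSL2 had reads above this level in 4 of 4 exons in both libraries. The number of such exons also depends on depth, and FOS had 33 counts in all with glucose.

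Sequences before the annotated start are shown for FOS, FOSB and FOSL2, since these 3 hold a short motif between bases 66 and 55 before it. They are the 250 bases before the start in RefSeq's GRCh38.p14 annotation, 5′ to 3′ on the strand of the gene, and capitals mark TGACGT, the core of the cAMP response element, to which CREB and ATF proteins bind. FOS lies at chr14:75278578-75278827 on the plus strand, FOSB at chr19:45467746-45467995 on the plus strand and FOSL2 at chr2:28392608-28392857 on the plus strand.
FOS: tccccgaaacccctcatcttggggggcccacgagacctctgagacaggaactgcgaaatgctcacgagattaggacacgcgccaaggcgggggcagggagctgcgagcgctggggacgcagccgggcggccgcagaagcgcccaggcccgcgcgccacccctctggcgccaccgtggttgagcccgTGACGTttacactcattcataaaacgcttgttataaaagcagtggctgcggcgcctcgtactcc
FOSB: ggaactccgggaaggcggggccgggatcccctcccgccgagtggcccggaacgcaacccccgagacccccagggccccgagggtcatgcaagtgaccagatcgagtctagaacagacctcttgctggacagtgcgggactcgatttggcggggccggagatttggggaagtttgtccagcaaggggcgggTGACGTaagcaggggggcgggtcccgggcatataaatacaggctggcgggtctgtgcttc
FOSL2: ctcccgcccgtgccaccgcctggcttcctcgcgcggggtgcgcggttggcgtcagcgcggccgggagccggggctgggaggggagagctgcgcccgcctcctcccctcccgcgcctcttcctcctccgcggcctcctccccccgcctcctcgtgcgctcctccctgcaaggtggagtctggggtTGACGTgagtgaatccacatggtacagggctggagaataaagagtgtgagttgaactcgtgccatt
The motif ran from base 64 to base 59 before the start in FOS, from 60 to 55 in FOSB and from 66 to 61 in FOSL2. The log2 ratios of the 3 genes were 3.25, 2.12 and -0.72, and FOSL2 did not meet the rule.

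The summed level of the Jun family differed by less than counting error, while its make-up differed. Summed RPKM were 71.6 with glucose and 70.5 without (log2 ratio -0.02, interval -0.08 to 0.03). JUN, the main partner of Fos proteins, had 3530 and 3216 counts, or 127 and 105 CPM. It was 1.21-fold lower without glucose (interval 1.15 to 1.27, log2 ratio -0.28), a difference within 2-fold. The 3 genes whose pair of levels lay nearest to that of JUN, by Euclidean distance in log2 CPM over the 2 libraries, were GBAS (125 and 105 CPM), SUPT6H (125 and 104 CPM) and TRIP11 (125 and 105 CPM).

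JUNB, an immediate-early Jun protein that can oppose JUN in growth control, had 716 and 262 counts, or 25.7 and 8.52 CPM. It was 3.02-fold lower without glucose (interval 2.61 to 3.49, log2 ratio -1.59) and was the only member below the lower bound. Its ratio ranked 598th from the bottom of the measured genes. JUND, which is made at steady levels in resting cells and restrains proliferation in many settings, had 1003 and 1969 counts, or 36.0 and 64.0 CPM. It was 1.78-fold higher (interval 1.65 to 1.92, log2 ratio 0.83), beyond counting error but short of the rule. JUN, JUNB and JUND are each annotated as a single exon.

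The share of JUNB in the summed RPKM of the family was 19.8% with glucose and 6.66% without, that of JUND 26.9% and 48.6%, and that of JUN 53.3% and 44.7%. JUN stood first with glucose, at 38.2 RPKM against 19.3 for JUND. Without glucose JUND stood first, at 34.3 RPKM (interval 32.8 to 35.8) against 31.5 for JUN (interval 30.4 to 32.6). In counts, JUNB took 13.6% of the family with glucose (Clopper-Pearson interval 12.7 to 14.6%) and 4.81% without (4.26 to 5.41%). The Fos sum was 2.25 times the Jun sum per length with glucose and 1.42 times without.

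The sequence before JUNB is shown because it is the member that was lower by the rule, and that before JUN because it carries the AP-1-like element TGACATCA, known as a site through which JUN acts on its own gene. They lie at chr19:12791236-12791485 on the plus strand and chr1:58784048-58784297 on the minus strand of GRCh38.p14, and capitals mark TGACATCA in JUN.
JUNB: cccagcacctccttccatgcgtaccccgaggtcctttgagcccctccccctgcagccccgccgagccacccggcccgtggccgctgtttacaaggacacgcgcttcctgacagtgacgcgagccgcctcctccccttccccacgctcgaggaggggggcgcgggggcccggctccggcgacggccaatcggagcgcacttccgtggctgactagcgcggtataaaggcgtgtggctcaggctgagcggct
JUN: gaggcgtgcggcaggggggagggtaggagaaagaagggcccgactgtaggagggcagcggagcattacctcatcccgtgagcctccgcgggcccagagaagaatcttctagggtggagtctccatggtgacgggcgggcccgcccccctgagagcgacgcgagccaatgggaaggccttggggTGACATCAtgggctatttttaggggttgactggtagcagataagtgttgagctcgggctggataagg
In JUN the element ran from base 67 to base 60 before the start. No searched motif was found in these bases of JUNB, which says only that those letters are not in this window.

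**Figure D2:**
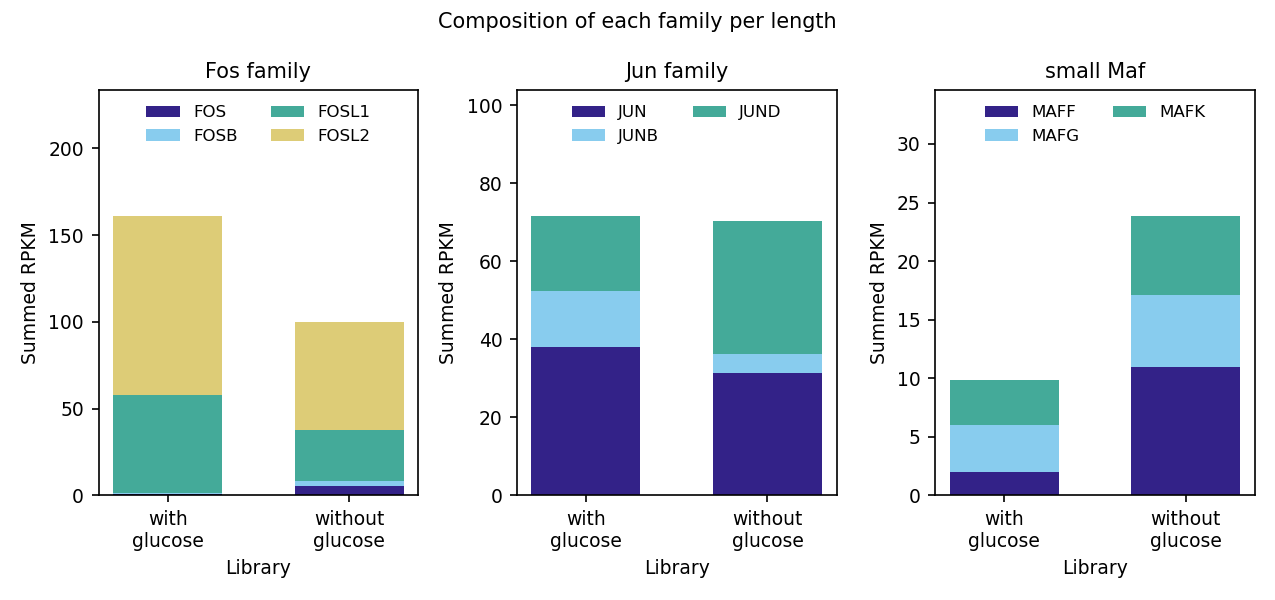
Summed RPKM of the Fos, Jun and small Maf families in each library as stacked bars from 0, with a colour for each gene and a separate scale in each panel. The Fos bar is lower without glucose (161 against 100.1), the Jun bars are nearly equal (71.6 and 70.5) with less JUNB and more JUND, and the small Maf bar is higher (9.83 against 23.8).

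All 3 small Mafs had ratio intervals wholly above 1-fold, as did 37.4% of measured genes, and MAFF met the rule. MAFF, the stress- and cytokine-inducible small Maf, had 142 and 853 counts, or 5.10 and 27.7 CPM. It was 5.44-fold higher without glucose (interval 4.55 to 6.55, log2 ratio 2.44) and ranked 137th from the top of the measured genes. MAFG, a broadly expressed partner of NRF2, had 577 and 975 counts, or 20.7 and 31.7 CPM, a 1.53-fold difference (interval 1.38 to 1.70). MAFK, another broadly expressed partner of NRF2 and BACH1, had 358 and 697 counts, or 12.9 and 22.7 CPM, a 1.76-fold difference (interval 1.55 to 2.01). The last 808 bases of the MAFK gene model overlap TMEM184A on the other strand, which had 53 counts with glucose and 289 without. Whether counting used strand is not given, so reads of the 2 genes cannot be told apart there.

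Summed RPKM of the small Mafs were 9.83 with glucose and 23.8 without, 2.42-fold higher (log2 ratio 1.28, interval 1.17 to 1.39). MAFF was the least abundant of the 3 with glucose, at 2.02 RPKM against 3.84 for MAFK and 3.97 for MAFG, the last 2 of which overlapped in their counting intervals. Without glucose it was the most abundant, at 11.0 RPKM against 6.77 for MAFK and 6.08 for MAFG, which again overlapped. Its share of the summed RPKM was 20.5% and 46.1%. Of the 5 exons in the MAFF model, which joins 4 RefSeq transcripts, 1 held more than 10 reads in each library. The MAFG model had 1 of 4 such exons with glucose and 3 of 4 without.

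The sequence before MAFF is shown as that of the small Maf that met the rule. The RefSeq table holds 2 starts for this gene, and the bases before the upstream start are printed, at chr22:38201744-38201993 on the plus strand of GRCh38.p14. No searched motif was found in the 250 bases before the other start. Which start these cells used was not tested. Capitals mark TGACGTCA, the full cAMP response element.
MAFF: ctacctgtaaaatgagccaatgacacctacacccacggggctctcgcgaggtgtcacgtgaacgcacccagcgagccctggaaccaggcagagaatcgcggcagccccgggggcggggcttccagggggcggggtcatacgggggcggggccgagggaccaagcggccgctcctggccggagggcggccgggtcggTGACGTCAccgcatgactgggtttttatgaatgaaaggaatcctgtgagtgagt
The element ran from base 54 to base 47 before the start, beside 64 to 59 for TGACGT in FOS, 60 to 55 in FOSB and 66 to 61 in FOSL2. JUND, the other member with TGACGTCA, carries it farther out, from base 200 to base 193, with a further TGACGT from 87 to 82 on the other strand.

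**Figure D3:**
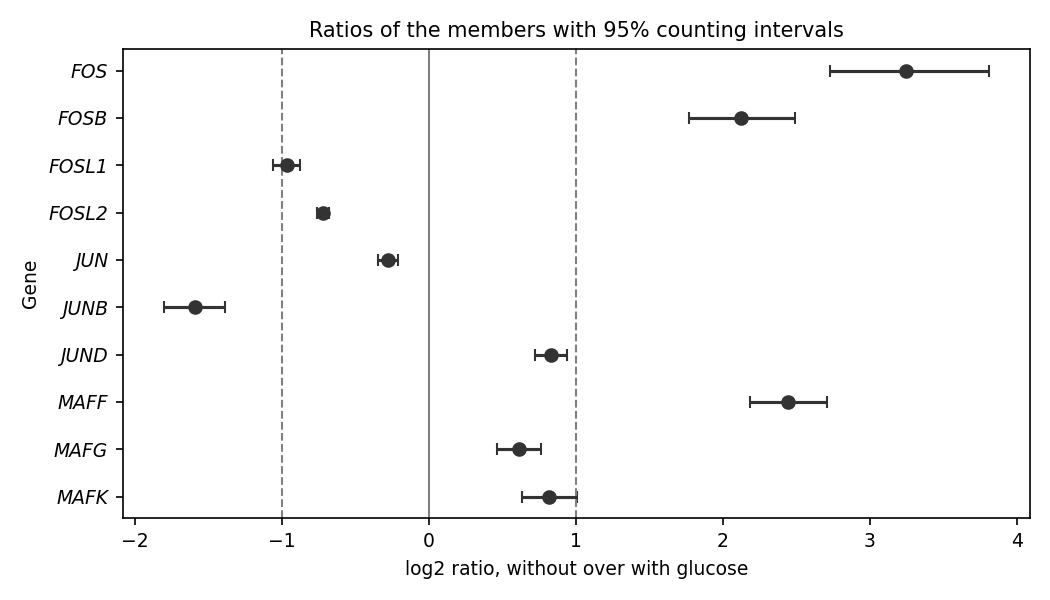
The log2 ratio of each member, without over with glucose, with its exact 95% counting interval. The solid line marks equal levels and the dashed lines the bounds of 2-fold and 0.5-fold. The intervals of FOS, FOSB and MAFF lie wholly to the right of the bounds and that of JUNB wholly to the left.

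Promoter entries were matched for 8 of the 10 members, with 9 entries in all, and FOSL1 and MAFK were not matched. Over the 250 bases before the start and on both strands, TGACGT was found in 5 of the 9 entries (FOS, FOSB, FOSL2, JUND and MAFF) and in 7.10% of the 35116 promoters of the table. Every match in MAFF, for this and the other motifs, lay before its upstream start. TGACGTCA, which contains TGACGT, was found in JUND and MAFF and in 1.65% of all promoters. TGACATCA was found in JUN and in 2.37% of all. The AP-1 site TGAGTCA was found in 0 of the 9 entries and in 4.20% of all. TGACNNNGC, a core of the antioxidant response element bound by small Maf heterodimers, was found in JUND and MAFF and in 10.9% of all, and can overlap TGACGT. The motifs were chosen with the sequences and ratios in view, and a match is a description of letters, not of binding.

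The order of all 10 members by RPKM differed between the libraries. With glucose it ran FOSL2, FOSL1, JUN, JUND, JUNB, MAFG, MAFK, MAFF, FOSB and FOS, from 103 to 0.550 RPKM, with overlapping intervals between MAFG and MAFK and between FOSB and FOS. Without glucose it ran FOSL2, JUND, JUN, FOSL1, MAFF, MAFK, MAFG, FOS, JUNB and FOSB, from 62.5 to 3.32 RPKM. There JUN overlapped FOSL1, and MAFK, MAFG, FOS and JUNB each overlapped the next in the order up to JUNB. The span between the highest and the lowest member was narrower without glucose. Among all measured genes FOS lay at percentile 11.8 by RPKM with glucose and 39.6 without, and JUNB at percentile 64.0 and 37.6.

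The pairs of levels nearest to FOS were those of THBD (1.36 and 11.0 CPM), LOC344887 (1.11 and 13.1 CPM) and DERL3 (0.898 and 9.50 CPM). Nearest to MAFF were HHLA3 (4.70 and 25.1 CPM), ZNF165 (4.63 and 23.4 CPM) and SDF2L1 (4.38 and 24.4 CPM). With 2 libraries, such likeness rests on 2 values per gene.

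In hg19 coordinates, as the deposited tables give them, FOS spans chromosome 14 from 75745481 to 75748937 and FOSB chromosome 19 from 45971253 to 45978437, both on the plus strand. JUNB (plus strand) spans chromosome 19 from 12902310 to 12904125 and JUND (minus strand) the same chromosome from 18390563 to 18392432. MAFF (plus strand) spans chromosome 22 from 38597939 to 38612517. Among measured genes the log2 ratio varied with the length of the gene model, and the medians of the length classes that hold the members ran from -0.16 to 0.15. The part of length in the ratios of the members was not tested.

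Of 8 ATF, BATF and JDP2 genes, whose products pair with Jun or Fos, 5 were measured. Of these, 1 was higher and 0 lower, beside 3.76% and 6.20% of all measured genes. Their median log2 ratio was 0.22 beside 0.01 for all measured genes. The higher gene was ATF3, a stress-induced repressor and partner of Jun, with 216 and 2516 counts, or 7.76 and 81.8 CPM (10.6-fold, interval 9.18 to 12.2). Per length it was at 32.9 RPKM without glucose, beside 34.3 for JUND and 31.5 for JUN. ATF4, the effector of the integrated stress response, was the most abundant of the list, at 110 and 148 RPKM, and ATF2, which binds the cAMP response element with JUN, was at 32.3 and 37.6 RPKM. Both were within 2-fold.

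Of 6 CNC and BACH genes, which encode the partners of small Mafs, 5 were measured, with a median log2 ratio of 0.50. None met the rule, beside 9.96% of all measured genes that met it in either direction. NFE2L1 (NRF1) was at 108 and 152 RPKM and NFE2L2 (NRF2) at 22.0 and 32.2 RPKM. Of the 4 large Mafs, which carry a transactivation domain, 2 were measured: MAF was at 9.56 and 7.21 RPKM, and NRL, best known from the retina, met the rule upward at 16 and 68 counts (0.574 and 2.21 CPM).

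The 6 genes of the serum response factor list, which drives FOS transcription, had a median log2 ratio of -0.28, with 0 higher and 1 lower, beside 3.76% higher and 6.20% lower of all measured genes. The lower gene was ELK3, a ternary complex factor that can repress FOS, with 1397 and 662 counts, or 50.2 and 21.5 CPM (2.33-fold lower). ELK4, another ternary complex factor, had 62.4 and 74.9 CPM, and SRF itself, named after its value was seen, had 57.6 and 57.9 CPM.

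Of 20 MAP kinase pathway genes, 19 were measured, with 0 higher and 3 lower, again beside 3.76% and 6.20% of all measured genes, and a median of -0.32. MAP2K6, an activator of p38, had 122 and 26 counts, or 4.38 and 0.846 CPM (5.18-fold lower). MAPK10, the JNK isoform best known from neurons, had 223 and 88 counts (2.80-fold lower), and RPS6KA1, the ERK-activated kinase RSK1, 1803 and 765 counts (2.60-fold lower). None of 6 regulators of Jun and Fos stability or activity met the rule (median -0.07), beside 9.96% of all measured genes in either direction. Among these regulators were COPS5, the JUN-binding COP9 subunit, at 84.2 and 82.6 RPKM and the ubiquitin ligase ITCH at 41.4 and 39.4 RPKM.

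Of 23 genes described as AP-1 targets, 21 were measured, with 5 higher and 0 lower, beside 3.76% and 6.20% of all measured genes, and a median log2 ratio of 0.24. The stromelysin gene MMP3 had 10 and 423 counts, or 0.359 and 13.8 CPM, a 38.3-fold difference (interval 20.6 to 80.5). The collagenase gene MMP1, whose promoter served to define AP-1, had 102 and 641 counts, or 3.66 and 20.8 CPM (5.69-fold, interval 4.61 to 7.09). The other 3 were MMP10, a second stromelysin, with 2 and 28 counts (12.7-fold, interval 3.20 to 110), HMOX1 and, named after its value was seen, the cytokine gene IL11 (2.56-fold).

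Of 12 genes described as targets of small Maf and CNC heterodimers, 6 were higher and 0 lower, beside the same shares of all measured genes, and the median was 1.15. HMOX1, heme oxygenase 1, is on both target lists and had 1308 and 14163 counts, or 47.0 and 461 CPM (9.81-fold). OSGIN1, an oxidative stress-induced growth inhibitor, had 72 and 344 counts (4.33-fold). The ferritin genes FTL, at 751 and 2334 CPM, and FTH1, at 29.8 and 116 CPM, were higher by the rule as well, and both have many pseudogenes that can share their reads. These lists were chosen with earlier results of the same libraries known, so their counts are a description.

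**Figure D4:**
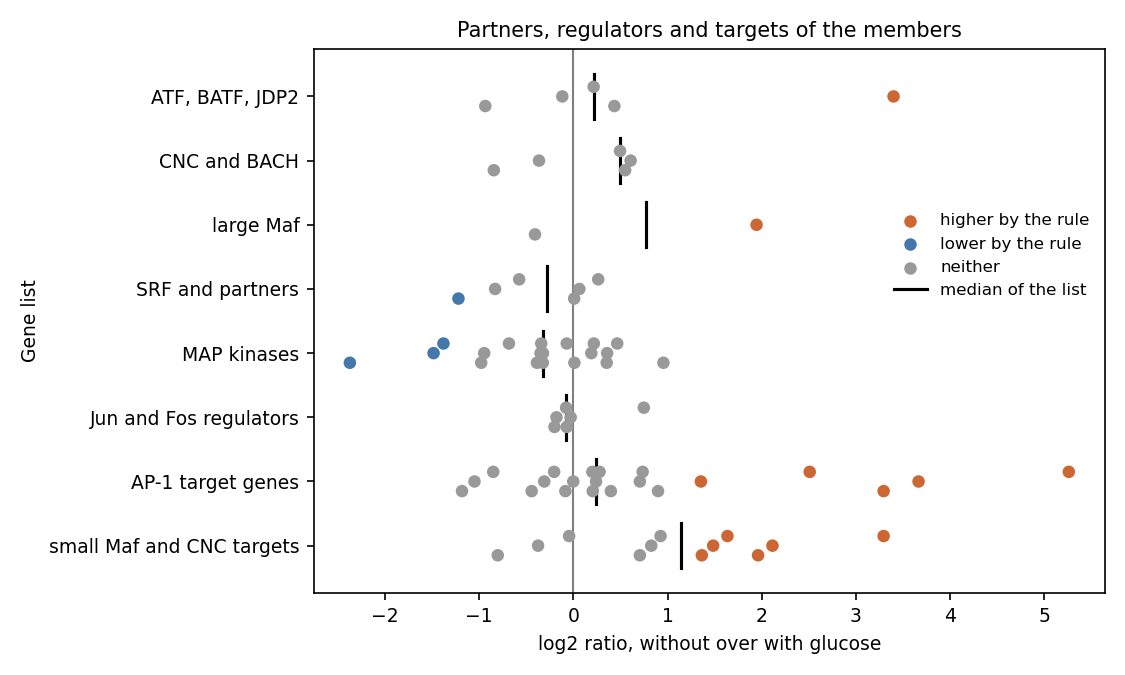
The log2 ratio of each measured gene in 8 lists of partners, regulators and targets, with the list's median as a black bar, genes higher by the rule in orange, lower in blue and neither in grey. The small Maf and CNC targets have the highest median (1.15), and the 3 blue points among the MAP kinases are MAP2K6, MAPK10 and RPS6KA1.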

How the data were processed

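Raw counts per gene model came from the tables deposited by the authors, 1 per library, with 24364 rows each. The reads were mapped to hg19, per the submitters' processing notes. The aligner, the counting program and the strand setting were not given in the sources used here. Deposited RPKM values, per the file headers, were not used, and RPKM were computed anew from the deposited counts. The number of exons with more than 10 reads was taken from the tables as deposited.

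Rows that repeated the place, length and both counts of another symbol (528) were left out, and the remaining rows of a symbol were added up. Library sizes were scaled by TMM (edgeR 4.0.16, R 4.3.3) over genes with at least 20 counts, with factors of 1.02 with glucose and 0.981 without. Ratios have exact Clopper-Pearson intervals from the share of counts in each library (scipy 1.17.1, pandas 2.3.3, Python 3.11.15), with 3 counts as the floor where a library had 0. Intervals of family sums used the normal approximation on the log scale with Poisson variances. Intervals cover counting error only and treat each count as independent. PCR copies of a molecule, where counted as separate reads, would make the intervals too narrow. The procedure was tested on simulated data.

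The members, the lists and the motifs were chosen with earlier results of these data known. Named genes were all members, up to 4 genes of each list past the rule with the largest ratios, the 2 most abundant genes of lists with at most 8 members, and the 3 genes nearest to FOS, JUN and MAFF. Genes named after their values were seen are marked as such. Scaling by total counts, upper quartile or DESeq2 1.42.0 size factors, 1 CPM added, small RNA genes left out, other sizes and other count minimums were tried.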

Additional observations from a re-analysis of the deposited data

How the results depend on the processing

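The directions of all 10 members were kept under scaling by total counts, upper quartile or DESeq2 size factors and with small RNA genes left out (0 sign changes among 40 values). Each setting shifted all log2 ratios by a single amount, from -0.06 (total counts) to 0.04 (upper quartile). The member ratio nearest to equal levels was -0.28 (JUN), so no sign could change. The same number of members (3 higher and 1 lower) met the rule under each setting. Scaling by total counts moved every member's log2 ratio by -0.06, which took FOSL2 to -0.77 and the Fos family sum to -0.74, beyond their counting intervals. The log2 ratio of FOS was 2.49 after 1 CPM was added to each library, an amount close to its level with glucose. The number of members past the rule depended on the size asked for. With an interval wholly past 1.5-fold, 5 were higher and 3 lower, beside 10.2% and 12.6% of measured genes, and past 3-fold 3 were higher and 0 lower, beside 1.40% and 2.15%. The sum of the Jun family had a log2 ratio of 0.01 with upper-quartile scaling, so its sign depended on the scaling. No paired analysis was possible because there was a single library per group, and for the same reason no replicate could be left out. Depth limited FOS most, whose log2 interval had a half-width of 0.54, against 0.04 for FOSL2.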
